A study of Mus musculus with 6 samples.

Results

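The genes described here were grouped as hormones and factors of islet alpha, delta and PP cells. They are the peptide hormone genes Gcg, Sst, Ppy, Pyy and Npy and the homeobox factor genes Irx1, Irx2 and Hhex. Of these, Npy and Pyy are not limited to such cells, as given below. All 8 genes were chosen by name and were found among the 54532 genes of the deposited table. RNA from mouse pancreatic islets, labelled as beta cells, was sequenced in 3 Bcas2 conditional knockout (Bcas2 cKO) libraries and 3 control libraries labelled wild type. The design text of the series calls the loss of Bcas2, a spliceosome-associated protein, a knockdown, and its title names insulin synthesis, secretion and alternative splicing. Neither the labels nor the design text name a Cre driver, a deleted exon, or the strain, age or sex of the mice.

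In an islet, alpha cells release glucagon, delta cells somatostatin and PP cells pancreatic polypeptide, beside the insulin of beta cells. Glucagon raises blood glucose, and somatostatin restrains the release of both insulin and glucagon. Pancreatic polypeptide, peptide YY and neuropeptide Y form 1 peptide family that acts on a shared group of receptors. In the mouse, Npy is known from sympathetic nerves and from immature beta cells, and Pyy from several islet endocrine cell types. IRX1 and IRX2 are Iroquois homeobox factors of alpha cells, and HHEX is a homeobox factor that mouse delta cells need.

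Npy, Irx1 and Irx2 were higher in Bcas2 cKO and passed the test, whereas the 4 abundant hormone genes Gcg, Sst, Ppy and Pyy and the delta cell factor gene Hhex did not. Npy averaged 169 ± 76.1 FPKM in Bcas2 cKO and 24.6 ± 13.8 FPKM in control (SD, n = 3 each), a 6.87-fold ratio. The ratio was 1.45 for Irx1 and 1.32 for Irx2. FPKM counts reads per kilobase of gene length, scaled to library depth. A gene was called when its Benjamini-Hochberg adjusted p in limma was under 0.05 over the 13723 genes whose mean FPKM was 1 or more. All 8 genes passed that minimum. Of all genes tested 14.5% were called, 6.97% higher and 7.55% lower in Bcas2 cKO, beside 3 of these 8 higher and 0 lower. At an unadjusted limma p under 0.05, 4 of the 8 were higher and 0 lower, and voom on recovered reads called 5 higher and 0 lower. Without Bcas2 cKO library 5, 1 of the 8 was called, which was Npy. Nothing in the labels states that each library is a separate animal, so the p-values describe the spread between libraries, which may be technical.

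The libraries held 16351800 to 16904326 reads on genes in Bcas2 cKO and 15170439 to 15594871 in control. Bcas2 averaged 8.77 ± 0.370 FPKM in Bcas2 cKO and 12.2 ± 2.51 FPKM in control (SD, n = 3 each; log2 fold change -0.42, limma adjusted p 0.083), so the targeted gene was lower without passing the test. Despite the label of beta cells, Gcg ranked 3 by FPKM in each of the 6 libraries. The 5 hormone genes together took 4.44 to 4.79% of the reads in Bcas2 cKO and 3.53 to 3.61% in control. Ins1 and Ins2 took 13.3 to 14.6% in Bcas2 cKO and 18.5 to 26.7% in control, and a set of 21 acinar markers 1.93 to 5.47% in Bcas2 cKO and 0.591 to 1.44% in control. In such bulk RNA a change in the number of cells of a type and a change in RNA per cell cannot be told apart. Bcas2 cKO library 5, whose number matches no sample title, also held the highest acinar share, and results that move without it are given with it left out.

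The promoters of 3 genes are shown because they belong to the hormone gene that rose, a factor gene that rose and the hormone gene with the textbook cyclic AMP response element. Each runs 5′ to 3′ from 250 bases before to 50 bases after the RefSeq start (GRCm38.p6), and capitals mark the letters TGACG (a CRE core), TGACGTCA (the full CRE, which holds the core on both strands), TGANTCA (AP-1) or GGGCGG (GC box), searched on both strands. Npy lies at chr6:49822460-49822759 on the plus strand, Irx2 at chr13:72628570-72628869 on the plus strand and Sst at chr16:23890795-23891094 on the minus strand.
Npy: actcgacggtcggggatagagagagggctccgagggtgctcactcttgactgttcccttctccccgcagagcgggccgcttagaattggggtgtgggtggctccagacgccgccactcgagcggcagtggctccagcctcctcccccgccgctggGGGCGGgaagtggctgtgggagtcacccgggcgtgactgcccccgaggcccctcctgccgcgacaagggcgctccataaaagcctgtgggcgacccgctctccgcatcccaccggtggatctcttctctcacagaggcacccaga
Irx2: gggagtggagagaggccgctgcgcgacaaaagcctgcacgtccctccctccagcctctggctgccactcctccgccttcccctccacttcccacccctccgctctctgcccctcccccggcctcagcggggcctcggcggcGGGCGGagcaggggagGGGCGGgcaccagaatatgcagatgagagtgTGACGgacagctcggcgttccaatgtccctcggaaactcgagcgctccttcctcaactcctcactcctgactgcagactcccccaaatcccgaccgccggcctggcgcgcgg
Sst: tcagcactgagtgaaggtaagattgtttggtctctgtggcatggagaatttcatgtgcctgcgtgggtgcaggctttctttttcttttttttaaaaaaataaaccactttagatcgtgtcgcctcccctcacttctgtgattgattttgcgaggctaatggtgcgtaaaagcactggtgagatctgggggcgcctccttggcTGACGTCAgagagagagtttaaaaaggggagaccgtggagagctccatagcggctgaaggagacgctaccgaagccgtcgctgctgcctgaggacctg
Sst held the full CRE 48 bases before its start, a motif found in 1.79% of the 32851 promoters of the same length. Irx2 held 1 core, 62 bases before the start, and 20.8% of all promoters held at least 1. Npy held no CRE, core or AP-1 match in this window (AP-1 was found in 7.81% of all promoters) and had 1 GC box, 95 bases before the start. Irx2 had 2 GC boxes, and 35.7% of all promoters had at least 1. Of the 8 genes, 7 had a promoter in the RefSeq table, and Irx1 did not. Among the promoters not printed, those of Gcg, Ppy, Pyy and Hhex held no full CRE, core or AP-1 match in the same window, and Hhex held 3 GC boxes. Sites further than 250 bases before a start were not searched.

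Npy (ENSMUSG00000029819, chromosome 6, 49822710 to 49829507, GRCm38, plus strand, 4 exons in its single GENCODE M21 transcript) encodes neuropeptide Y. Its level was 115, 135 and 256 FPKM in Bcas2 cKO libraries 3, 4 and 5, against 9.36, 28.1 and 36.2 FPKM in control libraries 1, 3 and 4. The lowest Bcas2 cKO library stood above the highest control library, and within each group the values were spread widely. These levels rested on 1183, 1348 and 2499 reads in Bcas2 cKO and on 84, 215 and 301 reads in control, so counting was not sparse in any library. The log2 fold change on log2(FPKM + 1) was 2.83 (SE 0.51, 95% interval 1.63 to 4.04, limma adjusted p 0.015). Npy ranked 16 of 13723 among the rises. By FPKM it was gene 199, 184 and 100 from the top in Bcas2 cKO libraries 3, 4 and 5, against 4557, 1354 and 896 in control libraries 1, 3 and 4. The call was kept when each library was left out in turn, with log2 fold changes of at least 2.28 and limma adjusted p of 0.014 to 0.048; without Bcas2 cKO library 5 the values were 2.49 and 0.048. Without a filter on low values the adjusted p was 0.052.

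**Figure D1:**
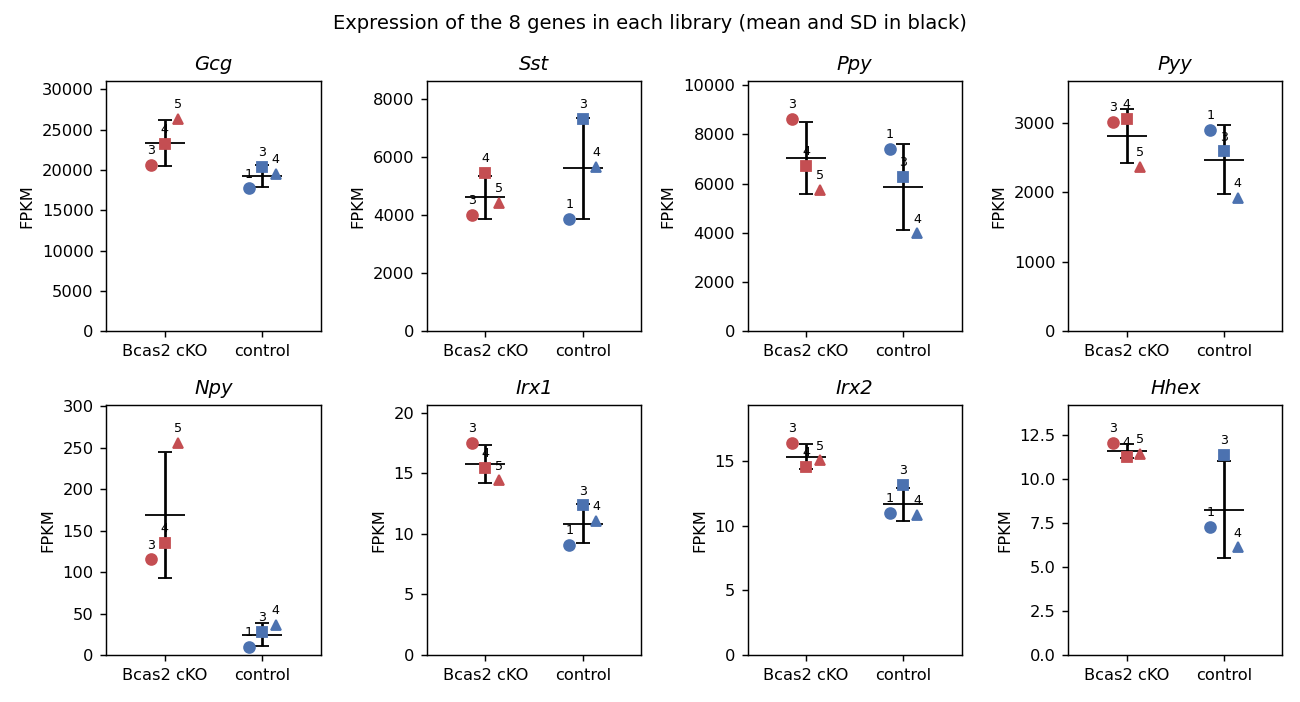
FPKM of the 8 genes in each library, with Bcas2 cKO at the left and control at the right of each panel; points are libraries, numbered as in the table, and black bars give mean and SD (n = 3). Npy, Irx1, Irx2 and, narrowly, Gcg had no overlap between the groups, a property of 38.0% of all genes tested.

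Several other measures were also higher in Bcas2 cKO, and their part in the rise of Npy was not tested. The acinar share of reads was 1.93, 2.60 and 5.47% in Bcas2 cKO libraries 3, 4 and 5, the same order as Npy, and 1.44, 0.658 and 0.591% in control libraries 1, 3 and 4, the opposite order. All 21 acinar markers had reads in every library, and 9 of the 20 tested rose with a median log2 fold change of 1.66, beside -0.03 over all genes tested. A list of 21 activity-regulated early genes took 1.59, 1.96 and 1.81% of the reads in Bcas2 cKO libraries 3, 4 and 5 and 0.239, 0.558 and 0.573% in control libraries 1, 3 and 4. The order of these shares matched that of Npy in control and not in Bcas2 cKO. Of the 21 early genes 19 were tested and 19 rose, with a median of 2.12. Without Bcas2 cKO library 5, 12 early genes and 1 acinar marker were called, and over the fits that each omitted 1 library the numbers were 10 to 18 early genes and 0 to 16 acinar markers. Among them were Arc, a synaptic gene induced by activity (95.9 ± 16.3 FPKM in Bcas2 cKO and 5.77 ± 3.05 FPKM in control; SD, n = 3 each), and Nr4a1, an orphan nuclear receptor gene.

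**Figure D2:**
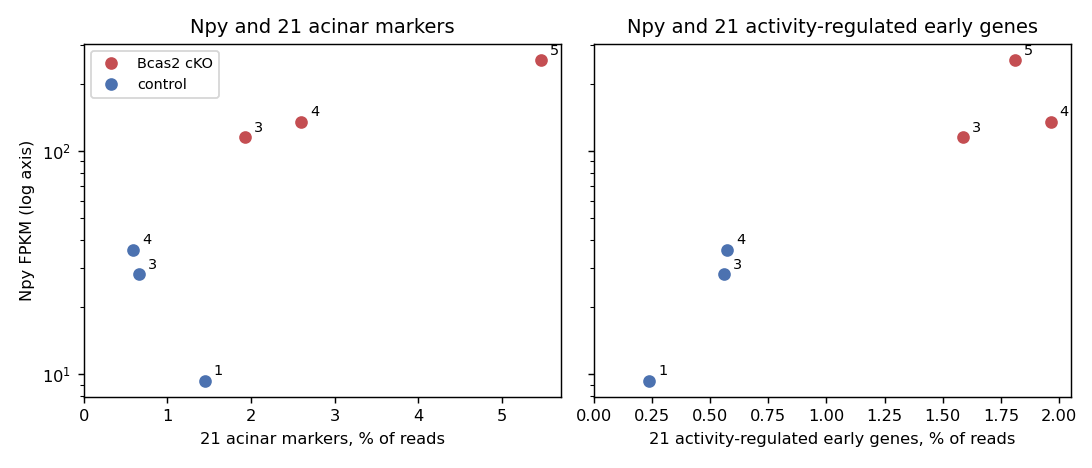
Npy FPKM (log axis) against the percentage of reads on 21 acinar markers (left) and on 21 activity-regulated early genes (right), 1 point per library. Control library 1 had the lowest Npy of 9.36 FPKM with the highest control acinar share of 1.44% and the lowest early gene share of 0.239%.

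Sympathetic nerve fibres also make neuropeptide Y, and their part in the Npy values was not tested. The 8 markers of these neurons summed to 57.8 to 71.8 FPKM in Bcas2 cKO and 102 to 118.5 FPKM in control. Most of this sum came from Ddc, at 43.7 ± 2.57 FPKM in Bcas2 cKO and 84.0 ± 4.86 FPKM in control (SD, n = 3 each). Dbh, which makes noradrenaline, had 0 reads in 2 Bcas2 cKO libraries and 1 control library, and Slc6a2, the noradrenaline transporter gene, in 1 Bcas2 cKO library and 2 control libraries. Of the 3 markers tested, Ddc and Th, enzymes of catecholamine synthesis that mouse beta cells also express, fell by 0.93 and 0.83 on the log2 scale (limma adjusted p 0.0024 and 0.042), and the neuronal filament gene Prph was 6.63 ± 3.32 FPKM in Bcas2 cKO and 5.56 ± 1.35 FPKM in control (SD, n = 3 each). The call of Th was kept in 1 of the 6 fits that each omitted 1 library.

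Irx1 and Irx2 lie in 1 Iroquois cluster on chromosome 13, with 665096 bases between them. Irx1 (ENSMUSG00000060969, 71957921 to 71963723, minus strand) was at 17.5, 15.4 and 14.4 FPKM in Bcas2 cKO libraries 3, 4 and 5, against 9.12, 12.4 and 11.1 FPKM in control libraries 1, 3 and 4. Irx2 (ENSMUSG00000001504, 72628820 to 72634198, plus strand) was at 16.4, 14.5 and 15.03 FPKM in Bcas2 cKO libraries 3, 4 and 5, against 10.99, 13.1 and 10.8 FPKM in control libraries 1, 3 and 4. For both genes every Bcas2 cKO library stood above every control library. The log2 fold change was 0.51 for Irx1 (SE 0.12, 95% interval 0.21 to 0.80, limma adjusted p 0.038) and 0.37 for Irx2 (SE 0.10, 95% interval 0.14 to 0.60, limma adjusted p 0.046). Their ratio, Irx1 over Irx2, was 1.03 ± 0.061 in Bcas2 cKO and 0.932 ± 0.098 in control (SD, n = 3 each). Each kept its call in 1 of the 6 fits that each omitted 1 library, the fit without control library 3 (limma adjusted p 0.039 for Irx1 and 0.030 for Irx2), with log2 fold changes over the 6 of 0.40 to 0.60 for Irx1 and 0.32 to 0.45 for Irx2. With FPKM rescaled without Ins1, Ins2, Iapp and the 5 hormone genes, the limma adjusted p was 0.13 for Irx1 and 0.22 for Irx2. That rescaling moved the median of all genes from -0.03 to -0.15, and relative to the median the changes were 0.52 for Irx1 and 0.38 for Irx2, beside 0.53 and 0.40 before it.

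Of the other Iroquois genes, Irx3 was at 0.348 ± 0.121 FPKM in Bcas2 cKO and 0.23 ± 0.071 FPKM in control (SD, n = 3 each), and Irx4, Irx5 and Irx6 were lower still, so none reached the minimum for a test. Gm20554, a long noncoding RNA gene 255 bases from Irx2, was at 3.74 FPKM in Bcas2 cKO and 3.71 FPKM in control. Neighbours of the 8 genes within 250 kb numbered 25 tested genes. Of these 3 were called, near the share of 14.5% over all genes tested. All 3 were lower: Slc4a10 near Gcg, G6pc3 near Ppy and Pyy, and Cpeb3 near Hhex (named after their values were seen). Npy and Irx1 had no other tested gene within that distance. No gene in GENCODE M21 overlapped any of the 8, so no antisense partner shared their positions.

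Hhex (ENSMUSG00000024986, chromosome 19, 37434810 to 37440731, plus strand) was at 12.04, 11.3 and 11.4 FPKM in Bcas2 cKO libraries 3, 4 and 5, against 7.26, 11.4 and 6.10 FPKM in control libraries 1, 3 and 4. Control library 3 lay among the Bcas2 cKO values and the other control libraries lay below them. The log2 fold change of 0.48 (SE 0.19, 95% interval 0.03 to 0.94) did not pass the test (limma adjusted p 0.14). Without control library 3 it was 0.71 with an adjusted p of 0.015, and it passed with library weights (0.049) and with voom on recovered reads (0.028).

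Gcg (ENSMUSG00000000394, chromosome 2, 62474530 to 62483650, minus strand), which encodes proglucagon, was the most abundant of the 8. It was at 20624, 23249 and 26311 FPKM in Bcas2 cKO libraries 3, 4 and 5, against 17728, 20437 and 19562 FPKM in control libraries 1, 3 and 4. On the FPKM scale the lowest Bcas2 cKO library exceeded the highest control library by less than the spread within either group. As a share of reads on genes, Gcg took 3.42, 3.62 and 4.01% in Bcas2 cKO libraries 3, 4 and 5. It took 2.69, 2.72 and 2.83% in control libraries 1, 3 and 4, so this separation depended on the scaling. The log2 fold change was 0.28 (SE 0.35, 95% interval -0.55 to 1.10, limma adjusted p 0.63). This SE draws on genes of similar abundance as well as on Gcg, so the interval does not describe the spread of Gcg alone. Gcg passed the test with voom on the recovered reads (log2 fold change 0.42, adjusted p 0.029), where the median of all genes was 0.11. Relative to that median the change was 0.31, beside 0.30 in the FPKM fit.

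Ppy (ENSMUSG00000017316, 102099930 to 102101319) and Pyy (ENSMUSG00000017311, 102106676 to 102107832) are neighbours on the minus strand of chromosome 11 with 5356 bases between them. Ppy, the pancreatic polypeptide gene, was at 8622, 6728 and 5738 FPKM in Bcas2 cKO libraries 3, 4 and 5, against 7399.5, 6265 and 3974 FPKM in control libraries 1, 3 and 4. Pyy, the peptide YY gene, was at 3019.7, 3057 and 2367 FPKM in Bcas2 cKO libraries 3, 4 and 5, against 2906, 2592 and 1927 FPKM in control libraries 1, 3 and 4. The groups overlapped for both. Neither gene passed: the log2 fold change was 0.28 for Ppy (SE 0.33, 95% interval -0.49 to 1.05, limma adjusted p 0.59) and it was 0.20 for Pyy (SE 0.23, 95% interval -0.35 to 0.74, limma adjusted p 0.60). The sign for Pyy was negative with quantile normalization (-0.34). Ppy over Pyy was 2.49 ± 0.333 in Bcas2 cKO and 2.34 ± 0.251 in control (SD, n = 3 each), and across the 6 libraries, which differ in depth and in acinar marker share, their log2 levels had a Pearson r of 0.94.

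Sst (ENSMUSG00000004366, chromosome 16, 23889573 to 23890958, minus strand) was at 4004, 5433 and 4400.02 FPKM in Bcas2 cKO libraries 3, 4 and 5, against 3851, 7293 and 5647 FPKM in control libraries 1, 3 and 4. The control libraries enclosed all the Bcas2 cKO values. The log2 fold change was -0.24 (SE 0.30, 95% interval -0.96 to 0.47, limma adjusted p 0.63), so a fall to 0.514 and a rise to 1.39 times the control level both lay within the interval.

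**Figure D3:**
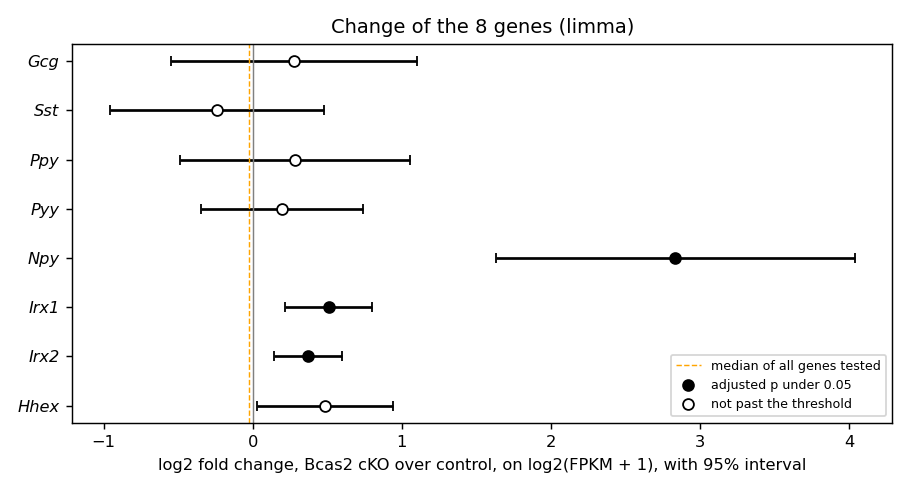
Log2 fold change of each gene, Bcas2 cKO over control, on log2(FPKM + 1) with its 95% interval from limma; filled points had an adjusted p under 0.05. Npy stands at 2.83, Irx1 and Irx2 at 0.51 and 0.37, and the intervals of Gcg, Sst, Ppy and Pyy include 0.

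Compared per kilobase, the mean level in Bcas2 cKO was highest for Gcg (23395 ± 2846 FPKM), followed by Ppy (7029.6 ± 1465), Sst (4612 ± 738), Pyy (2815 ± 388), Npy (169 ± 76.1), Irx1 (15.8 ± 1.58), Irx2 (15.3 ± 0.965) and Hhex (11.6 ± 0.413). In control the order was Gcg (19242 ± 1382), Ppy (5879 ± 1745), Sst (5597 ± 1721), Pyy (2475 ± 499.8), Npy (24.6 ± 13.8), Irx2 (11.6 ± 1.28), Irx1 (10.9 ± 1.63) and Hhex (8.24 ± 2.76) (SD, n = 3 for all). In control, Ppy and Sst, Npy and Irx2, Irx2 and Irx1, and Irx1 and Hhex differed by less than the larger of their SDs, and in Bcas2 cKO so did Irx1 and Irx2.

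Ratios of 2 hormones within a library do not depend on how libraries were scaled to each other. Npy over Gcg was -7.20 ± 0.446 on the log2 scale in Bcas2 cKO and -9.82 ± 0.946 in control (SD, n = 3 each), a difference of 2.63 with no overlap. Its exact permutation p was 0.1, 2-sided, the smallest that 3 against 3 libraries allow, and 0.45 after Benjamini-Hochberg adjustment over the 9 shares and ratios tested. Gcg over Sst was 2.35 ± 0.242 in Bcas2 cKO and 1.83 ± 0.359 in control, with overlap (exact permutation p 0.2, adjusted 0.45). Ppy over Gcg was -1.75 ± 0.471 in Bcas2 cKO and -1.76 ± 0.521 in control, and Pyy over Gcg was -3.06 ± 0.369 in Bcas2 cKO and -2.98 ± 0.367 in control (exact permutation p 0.9 and 0.8, adjusted 1.0 each). Of the summed FPKM of the 5 hormone genes, Gcg made up 61.4 ± 5.43% in Bcas2 cKO and 58.1 ± 4.10% in control (exact permutation p 0.5, adjusted 0.9). Npy made up 0.441 ± 0.186% in Bcas2 cKO and 0.074 ± 0.044% in control (exact permutation p 0.1, adjusted 0.45), so it stayed a minor hormone transcript in both groups.

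**Figure D4:**
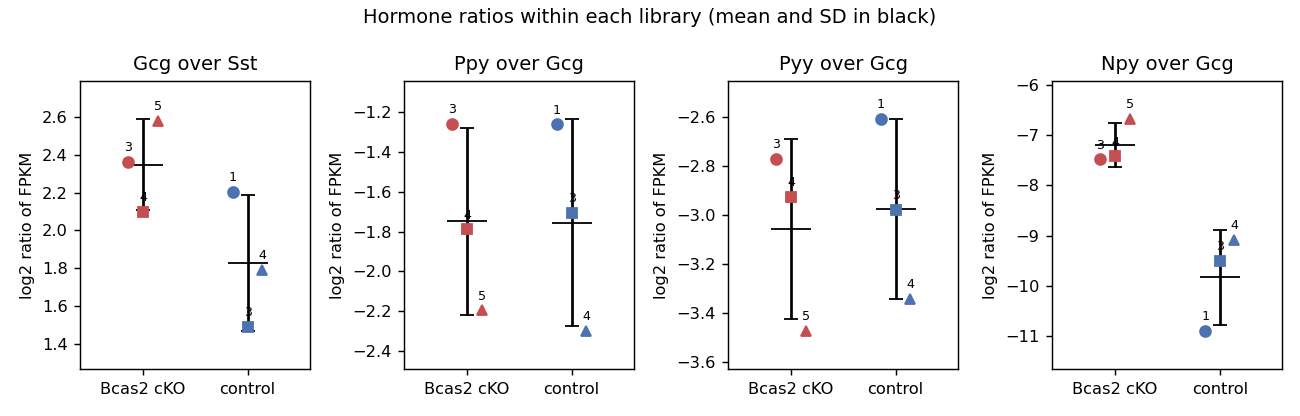
Log2 ratios of hormone FPKM within each library, with Bcas2 cKO at the left and control at the right of each panel; points are numbered libraries and black bars give mean and SD (n = 3). The groups are apart for Npy over Gcg and overlap for Gcg over Sst, Ppy over Gcg and Pyy over Gcg.

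The libraries' patterns were compared by Pearson r of log2(FPKM + 1) over the 6 libraries, among 11115 named protein-coding genes. Among the nearest to Npy were Klf6, a zinc finger factor gene (r 0.99), and Rnd3, a small GTPase gene (0.99), which rose by 1.03 and 1.10 on the log2 scale (limma adjusted p 0.036 and 0.013). Nearest to Irx1 were Smarcd1, Id4 and Sfpq, and among the nearest to Irx2 were Sarnp and Thoc3, all with r of 0.98 to 0.99, and of these 5 genes only Sarnp was called. For Gcg the nearest were Wdsub1, Bcr and Dnaja4, for Sst Uqcrfs1, Rab33b and Nifk, for Ppy Iigp1, Ppcs and Ddx47, for Pyy Ddx52, Dimt1 and Zfyve21, and for Hhex Tor1a, Med27 and Taf1b (none called; the lowest r was 0.96, for Zfyve21). With 6 libraries that share a group difference, such values describe likeness only. Irx1 and Irx2 had r = 0.94 with each other, beside 0.80 and 0.92 with Hhex on another chromosome. Npy had 0.91 with Gcg, 0.87 with Irx1, 0.82 with Irx2, 0.65 with Hhex, -0.09 with Sst and 0.04 with both Ppy and Pyy.

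Other genes of alpha and delta cells did not pass the test. Of 10 alpha cell genes 8 were tested and 0 were called, with a median log2 fold change of -0.06. At an unadjusted limma p under 0.05, 1 was higher and 2 were lower, and voom called 0. Ttr, the transthyretin gene, was at 1068 ± 221 FPKM in Bcas2 cKO and 1275 ± 321 FPKM in control, and Slc7a2, a cationic amino acid transporter gene, at 66.3 ± 11.8 FPKM in Bcas2 cKO and 91.5 ± 10.04 FPKM in control (SD, n = 3 each). Of 7 delta cell genes 6 were tested and 0 were called, with a median of 0.07. At an unadjusted limma p under 0.05, 1 was higher and 0 lower, and voom called 1 higher. Rbp4, the retinol-binding protein gene, was at 113 ± 13.4 FPKM in Bcas2 cKO and 124 ± 32.8 FPKM in control, and Pdx1, a factor gene of beta and delta cells, at 64.3 ± 4.11 FPKM in Bcas2 cKO and 75.03 ± 6.41 FPKM in control (SD, n = 3 each). Ghrl, the ghrelin gene of epsilon cells, was at 1.64 ± 0.678 FPKM in Bcas2 cKO and 1.92 ± 0.715 FPKM in control and did not pass the test.

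Among 18 endocrine transcription factor genes, some of them also on the alpha or delta cell list, 15 were tested, 0 rose and 1 fell (median 0.14). Foxa2, a forkhead factor gene of the endocrine pancreas, fell to 30.7 ± 2.63 FPKM in Bcas2 cKO, against 54.8 ± 10.3 FPKM in control (SD, n = 3 each; log2 fold change -0.80, limma adjusted p 0.016). Among 13 receptor genes for the 5 hormones, 5 were tested, 0 rose and 1 fell (median -0.22). Sstr3, a somatostatin receptor gene, fell to 47.04 ± 6.10 FPKM in Bcas2 cKO, against 75.8 ± 0.239 FPKM in control (SD, n = 3 each; log2 fold change -0.69, limma adjusted p 0.011). All 5 listed receptor genes of the neuropeptide Y family were below the minimum, the highest being Npy1r at 0.176 ± 0.067 FPKM in Bcas2 cKO and 0.152 ± 0.115 FPKM in control.

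Of 9 genes that process prohormones, 0 rose and 2 fell (median -0.26). At an unadjusted limma p under 0.05, 1 of them was higher and 4 were lower, and voom called 1 higher and 3 lower. Pcsk2, the convertase that cuts proglucagon and proinsulin, fell to 274 ± 11.9 FPKM in Bcas2 cKO, against 424 ± 1.96 FPKM in control (SD, n = 3 each; log2 fold change -0.63, limma adjusted p 0.0099). Scg5 encodes the chaperone of this convertase and was at 269.7 ± 6.86 FPKM in Bcas2 cKO and 408.5 ± 31.7 FPKM in control (SD, n = 3 each; log2 fold change -0.59, limma adjusted p 0.016) and kept its call in 2 of the 6 fits that each omitted 1 library. Of 24 other peptide hormone and neuropeptide genes 11 were tested, and 1 rose and 1 fell (median -0.15). Pdyn, the prodynorphin gene, rose to 60.1, 64 and 97.02 FPKM in Bcas2 cKO libraries 3, 4 and 5, against 38.3, 17.7 and 10.4 FPKM in control libraries 1, 3 and 4 (log2 fold change 1.85, limma adjusted p 0.034). Ucn3, a urocortin gene of mature beta cells, fell by 1.09 on the log2 scale (limma adjusted p 0.026). The calls of Pdyn and Ucn3 were kept in 1 and 2 of the 6 fits that each omitted 1 library.

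**Figure D5:**
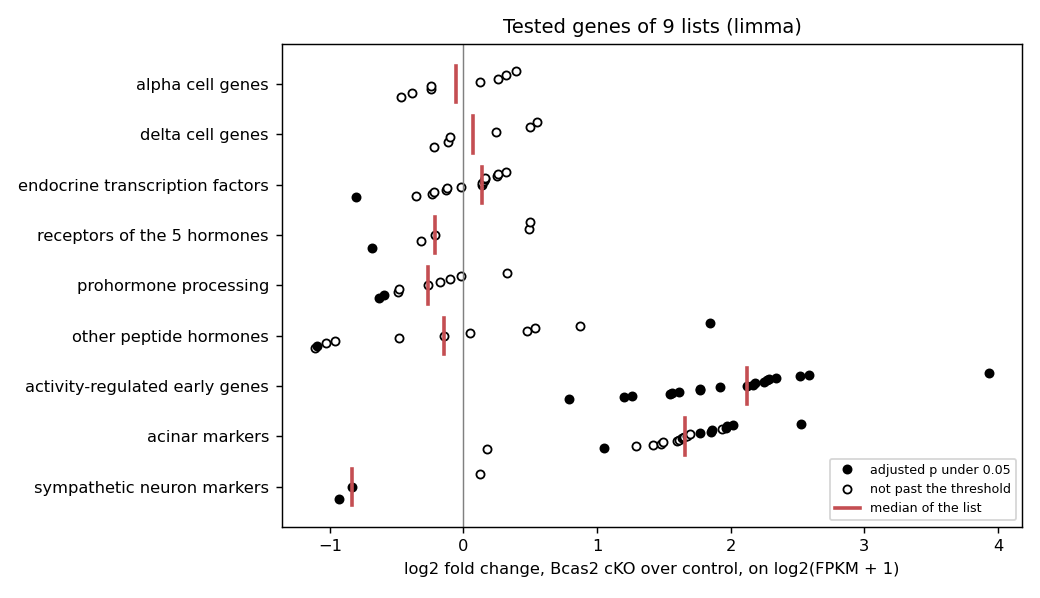
Log2 fold change, Bcas2 cKO over control, of the tested genes of 9 lists; filled points had a limma adjusted p under 0.05 and the red bar is the list's median. The alpha and delta cell genes lie around 0 with medians of -0.06 and 0.07, and all 19 early genes lie above 0.

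Markers of the other cell types in an islet preparation moved in both directions. Of 9 beta cell markers 0 rose and 2 fell (median -0.59): Ucn3 and Slc2a2, the glucose transporter gene, which was at 111 ± 8.03 FPKM in Bcas2 cKO and 199.9 ± 9.98 FPKM in control (SD, n = 3 each; limma adjusted p 0.0037). At an unadjusted limma p under 0.05, 1 beta cell marker was higher and 3 were lower, and voom called 1 higher and 5 lower. Of 8 macrophage markers tested 5 rose and 0 fell (median 0.55), among them Cd68 at 5.62 ± 0.643 FPKM in Bcas2 cKO and 2.11 ± 0.368 FPKM in control (SD, n = 3 each; limma adjusted p 0.0034). Without Bcas2 cKO library 5, 2 macrophage markers were called. Of 8 endothelial markers 0 rose and 1 fell (Esm1; median -0.12), and of 4 Schwann cell markers tested 1 rose (Ngfr) and 1 fell (median -0.02). Of 7 ductal and 7 stellate and fibroblast markers tested limma called 0, with medians of 0.31 and 0.46; at an unadjusted p under 0.05, 2 ductal markers were higher and 1 lower, and 1 stellate marker was higher and 1 lower, while voom called 2 ductal and 1 stellate marker higher. The part of these cells in the values of the 8 genes was not tested.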

How the data were processed

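The authors deposited 1 table of FPKM for 54532 genes with gene lengths, per the file headers. Trizol and a SMARTer mRNA-seq kit are named in the labels' protocols, and GRCm38 (mm10) in the submitters' processing notes. Aligner, counting and strand setting: not given in the sources used here. The column numbered 5 matched no sample title and entered Bcas2 cKO by its group name. Multiplying FPKM by gene length gave whole reads for 100% of values within 0.01 of a read, used for depth and for voom. FPKM had been scaled to a depth of 1.020 to 1.11 times these totals in Bcas2 cKO and 0.890 to 1.017 times in control, without overlap. Every 2 libraries differed by more than sampling noise (chi-square per degree of freedom at least 13.6).

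The test was limma 3.58.1 (eBayes with trend, R 4.3.3) on log2(FPKM + 1), adjusted over all 13723 genes with a mean FPKM of 1 or more; ratios within libraries had exact permutation tests (scipy 1.17.1). Tested on simulated data (5 sets of 13723 genes), the fit for Bcas2 cKO against control recovered 92.8% of genes changed by a log2 fold of 1. In these sets 7.13% of its calls were false. Both percentages hold for these sets only, and the share of false calls among the reported ones was not tested. Recovery of changes below a log2 fold of 1, such as 0.51 for Irx1 and 0.37 for Irx2, was not tested. The 8 genes and 17 lists were chosen with earlier results of these data known. The text names the 8 genes, Bcas2, up to 4 called genes of a list by size of change or else its 2 of highest FPKM, and the 3 genes most correlated with each of the 8, less a few that are not reported here; Prph and Npy1r and the neighbours were chosen after their values were seen. Alternatives were another pseudocount, 2 other filters, 4 scalings, 3 variance settings, voom, a replicate block and leaving out each library; the fit of the block's 4 libraries without a block was added after seeing the data.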

Additional observations from a re-analysis of the deposited data

How the results depend on the processing

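Of the 8 genes 3 were called, and 1993 of all genes tested. Without a filter on low values these counts were 0 (limma; 3 of the 8 higher at an unadjusted p under 0.05, and Npy at an adjusted p of 0.052) and 1144, and 20 rather than 45 list genes were called, with 32845 genes tested. Rescaled without the insulin, Iapp and 5 hormone genes 1 of the 8 was called, and with voom on recovered reads 5. The share of calls that were higher in Bcas2 cKO was 48.0%, against 25.2% rescaled without the hormone genes, 76.0% with voom and 65.1% with the replicate block. Leaving out each library gave 878 to 1950 called genes, 20 to 50 list genes and 1 to 4 of the 8 genes. The numbers 3 and 4, shared by the groups, pair the samples by number only (r of deviations -0.15 and 0.05 between same-numbered libraries). With a replicate block on these 4 libraries 527 genes, 20 list genes and 1 of the 8 (Npy) were called, and without a block on the same 4 libraries 885, 41 and 1. Pyy turned to -0.34 with quantile normalization, which also put Gcg at 0 by construction, since Gcg had the same rank in every library. Differences between Bcas2 cKO and control over fits without 1 library were -1.63 to 3.67 points for the Ppy share of the 5 hormones, -0.670 to 0.792 points for the Pyy share, -0.26 to 0.25 for log2 Ppy over Gcg and -0.26 to 0.13 for log2 Pyy over Gcg, so these had no settled sign. Npy over Gcg was 2.09 or more in each. Beside the scalings given, the cause of these shifts was not tested. With 3 libraries per group, the intervals of Gcg, Sst, Ppy and Pyy on the FPKM scale held changes in both directions.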
